A study of Mus musculus with 6 samples.

Results

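New histones H3 and H4 are made in the cytoplasm, carried into the nucleus and placed on DNA by a chain of escort proteins, and 10 genes of that chain were measured here: Asf1a, Asf1b, Chaf1a, Chaf1b, Nasp, Rbbp4, Rbbp7, Ipo4, Hira and Daxx. They were chosen by gene symbol out of 17512 genes in the count table. The samples were 6 lines of pMEFs, primary fibroblasts taken from mid-gestation mouse embryos after the organs had been removed and kept in DMEM with fetal bovine serum. All lines had the C57bl6 background, 3 were HAT1 WT (lines 36, 47 and 78) and 3 were HAT1 KO (lines 33, 41 and 72). No treatment separated the groups, and each line gave 1 library, so every p-value measures the spread between lines.

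HAT1 acetylates newly made histone H4 and works in the cytoplasm together with RBBP7. NASP holds a reserve of H3-H4, ASF1 binds the H3-H4 dimer, and importin 4 carries it through the nuclear pore. In the nucleus ASF1 hands the histones to one of several depositing complexes. CAF-1, made of the products of Chaf1a, Chaf1b and Rbbp4, places the replication-dependent H3 on freshly copied DNA. HIRA and DAXX instead place the variant H3.3 at any time in the cell cycle, HIRA mainly at active genes and DAXX, with ATRX, at silent repeats and telomeres. Asf1b is the ASF1 form known to be tied to dividing cells, whereas Asf1a is also made in resting cells and works with HIRA. Chaf1a, Chaf1b and Asf1b are therefore called replication-coupled below, and Hira and Daxx replication-independent. Rbbp4, a CAF-1 subunit that is also a part of other complexes, is left out of both groups and described with the remaining members.

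The promoters of the 3 replication-coupled genes and of Hira are printed below, and that of Daxx is not. Whether their letters bear on the expression of these genes was not tested. Each run is the 250 bases before the RefSeq start site on GRCm38.p6, plus strand, at chr8:83955444-83955693 for Asf1b, chr17:56040166-56040415 for Chaf1a, chr16:93883651-93883900 for Chaf1b and chr16:18876500-18876749 for Hira. Capitals mark 3 kinds of letters known from cell cycle promoters: the CCAAT box (ATTGG where it lies on the other strand), the E2F core TTCCCGC, which reads GCGGGAA on the other strand, its second form TTGGCGC, which reads GCGCCAA there, and TTTGAA, the usual letters of the cell cycle homology region.
Asf1b: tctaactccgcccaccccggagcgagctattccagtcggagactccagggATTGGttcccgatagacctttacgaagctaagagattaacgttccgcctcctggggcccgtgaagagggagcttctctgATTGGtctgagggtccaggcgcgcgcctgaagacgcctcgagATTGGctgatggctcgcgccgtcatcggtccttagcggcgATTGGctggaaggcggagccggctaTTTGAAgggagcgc
Chaf1a: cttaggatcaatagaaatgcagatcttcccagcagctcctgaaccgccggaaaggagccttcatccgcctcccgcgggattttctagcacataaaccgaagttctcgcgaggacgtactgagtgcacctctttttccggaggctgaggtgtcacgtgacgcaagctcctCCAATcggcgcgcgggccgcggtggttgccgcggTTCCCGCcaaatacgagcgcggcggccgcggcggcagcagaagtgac
Chaf1b: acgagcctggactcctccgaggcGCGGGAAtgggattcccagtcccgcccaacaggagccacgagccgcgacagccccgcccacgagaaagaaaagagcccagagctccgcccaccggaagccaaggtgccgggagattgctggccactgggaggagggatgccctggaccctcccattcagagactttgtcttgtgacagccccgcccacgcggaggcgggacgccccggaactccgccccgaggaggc
Hira: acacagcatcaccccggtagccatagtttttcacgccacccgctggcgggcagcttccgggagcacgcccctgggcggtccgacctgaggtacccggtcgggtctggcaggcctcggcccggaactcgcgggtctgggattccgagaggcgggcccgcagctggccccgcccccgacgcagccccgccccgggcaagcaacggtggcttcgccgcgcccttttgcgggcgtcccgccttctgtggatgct

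Positions count from the start site, with -1 the last base before it. Both strands were searched from 250 bases before to 50 after each start, in 12 windows for the 10 genes and in 32851 windows in all. Asf1b held 4 CCAAT boxes, all on the minus strand, and a TTTGAA at -14 to -9, and 1.06% of all windows held as many CCAAT boxes or more. In GENCODE M21, Asf1b begins at chr8:83955507, upstream of this RefSeq start. Its CCAAT boxes from -121 onward and the TTTGAA therefore lie inside the GENCODE gene span. Chaf1a held 1 CCAAT box and, closer to its start, an E2F core at -47 to -41. Chaf1b had no CCAAT box, but an E2F core at -227 to -221 and another inside the transcript, at 26 to 32. Of the replication-independent genes, Hira held none of these letters in its window. GENCODE M21 begins Hira at chr16:18877037, downstream of that window, so the search did not reach this start. The starts of Asf1a and Ipo4 also differ between RefSeq and GENCODE. Daxx held a CCAAT box at -204 to -200, on the minus strand, in 1 of its windows. Over all 10 genes, a CCAAT box was present in 7 of 12 windows against 37.4% of all windows, TTTGAA in 3 against 17.9%, and the E2F core in 3, those of Chaf1a, Chaf1b and Rbbp4, against 6.81%. Longer E2F letters, TTTCCCGC and TTTGGCGC (which contain the core) with the further forms TTTCGCGC or else TTTGCCGC, were present in 0 of 12 windows against 2.26%. The core was searched only after these windows had been read. A match describes letters and does not show that a factor binds there.

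The libraries held between 67720628 and 98786746 counts, and levels are given as CPM, counts relative to library size after TMM scaling, which evens out libraries of different composition. Hat1, the gene targeted in the KO lines, was at 17.4, 23.0 and 20.1 CPM in WT lines 36, 47 and 78 and at 10.2, 10.0 and 10.3 CPM in KO lines 33, 41 and 72. It fell to about 0.504 of the WT level (edgeR quasi-likelihood adjusted p = 0.0376), a call lost when any of the 6 lines was left out, with adjusted p then between 0.0587 and 0.230. The log2 fold change of Hat1, -0.99, stayed between -1.08 and -0.87 in those fits, each with an unadjusted p under 0.05. At 10.0 to 10.3 CPM, the KO lines still carried reads of the gene, and the labels do not describe the allele. All 10 fibroblast markers were detected in the lines, with sums of 57729 to 89805 CPM. The 10 blood markers summed to 4661 to 5076 CPM in WT and 2236 to 2785 CPM in KO lines, and all 10 were lower. Endothelial, epithelial, muscle and neural markers summed to at most 12.6, 2.49, 26.8 and 82.3 CPM in any line. These sums covered 5 of 6 endothelial, 6 of 6 epithelial, 1 of 5 muscle and 4 of 5 neural markers, the ones with counts. Among those tested, 1 endothelial marker was higher in KO and 3 were lower, and 1 epithelial marker was higher and 1 lower. The 1 muscle marker was lower, and all 4 neural markers were higher. Y-linked genes had 13788, 12841 and 231 counts in WT lines 36, 47 and 78 and 4 to 8 counts in KO lines. Xist had 94, 1179 and 29520 counts in the same WT lines and 11233 to 13722 counts in KO lines. WT line 47 thus carried both, and a term for high Y-linked counts does not separate it from WT line 36. KO line 72 stood apart, with a mean Pearson correlation with the other libraries of 0.958 against 0.974 to 0.979. In bulk RNA, fewer cells of a type and less RNA per cell cannot be told apart.

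The replication-coupled genes were higher in every HAT1 KO line than in any HAT1 WT line, by a ratio of means between 1.35 and 1.53. Of all genes tested, 9.59% were likewise higher in every KO line. Hira and Daxx were within a ratio of 1.04 and overlapped between the genotypes. Rbbp4, the CAF-1 subunit outside the replication-coupled group, overlapped as well, with a ratio of 1.08. No member passed the adjusted threshold in edgeR. Asf1b, the histone escort of dividing cells, was at 8.42, 11.2 and 9.16 CPM in WT lines 36, 47 and 78 and at 17.6, 12.9 and 13.4 CPM in KO lines 33, 41 and 72. The genotypes did not overlap, and KO line 33 stood above the other two KO lines. The mean was 9.58 ± 1.42 CPM in WT and 14.6 ± 2.58 CPM in KO (SD, n = 3), a log2 fold change of 0.61 (SE 0.17, 95% interval 0.20 to 1.02, edgeR adjusted p = 0.201).

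Chaf1a, which encodes the large CAF-1 subunit that binds the sliding clamp at the fork, was at 18.9, 25.1 and 19.1 CPM in the WT lines and at 29.9, 26.4 and 29.0 CPM in the KO lines. WT line 47 was the highest WT line and lay just below KO line 41, the lowest KO line. The log2 fold change was 0.44 (SE 0.13, 95% interval 0.12 to 0.75, edgeR adjusted p = 0.228). Chaf1b, the middle CAF-1 subunit that helps bind H3-H4, was at 10.3, 14.6 and 10.5 CPM in the WT lines and at 19.4, 18.6 and 15.1 CPM in the KO lines. Here too WT line 47 was the nearest to the KO lines, and KO line 72 was the lowest of them. The log2 fold change was 0.58 (SE 0.18, 95% interval 0.16 to 1.01, edgeR adjusted p = 0.226). Within CAF-1, the ratio of Chaf1b to Chaf1a per kb of exon was 1.04, 1.11 and 1.04 over the WT lines and 1.23, 1.33 and 0.989 over the KO lines, so the 2 genotypes overlapped. The plot of CPM by line shows all 10 genes.

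**Figure D1:**
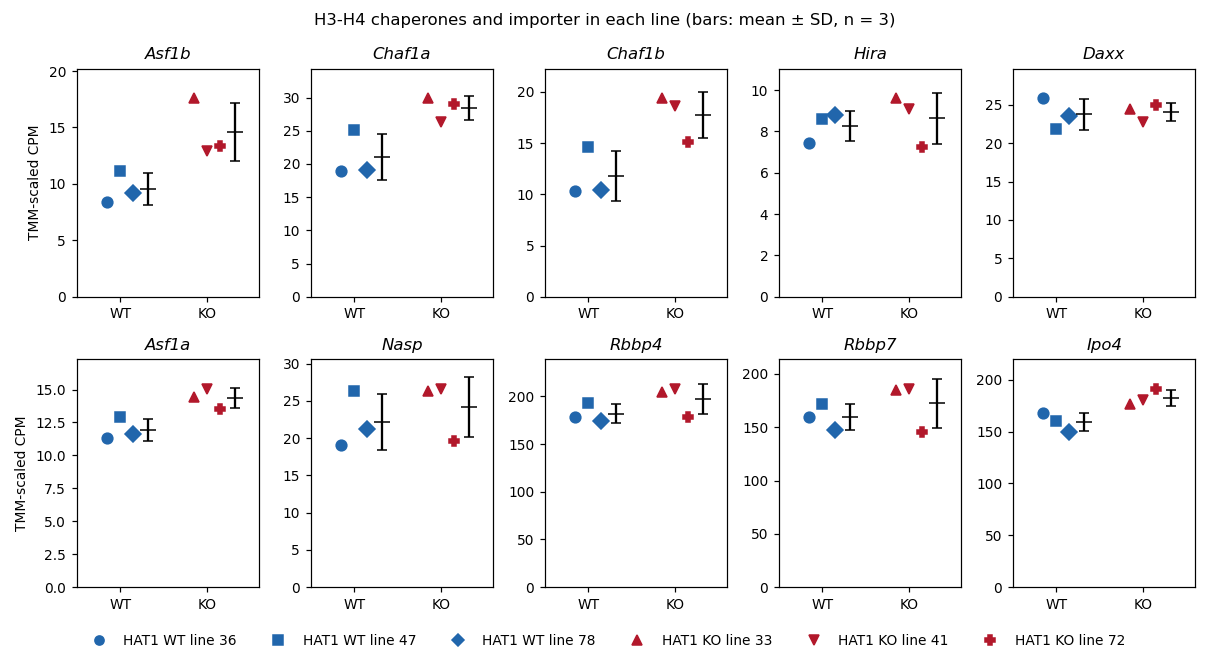
TMM-scaled CPM of the 10 genes (vertical axes, each from 0) in the 3 HAT1 WT lines (blue) and the 3 HAT1 KO lines (red), 1 marker per line, with bars for the mean ± SD (n = 3). Asf1b, Chaf1a, Chaf1b, Asf1a and Ipo4 do not overlap between genotypes and are higher in KO, as are 9.59% of all genes tested. The other 5 genes overlap.

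The replication-independent genes differed less between the genotypes. Hira, which encodes the scaffold of the complex that places H3.3 at active genes, was at 7.45, 8.62 and 8.77 CPM in the WT lines and at 9.60, 9.07 and 7.23 CPM in the KO lines. KO line 72 was the lowest of all 6 lines and KO line 33 the highest, so the KO lines enclosed the WT range. The log2 fold change was 0.06 (SE 0.14, 95% interval -0.29 to 0.41, edgeR adjusted p = 0.882), and it was -0.0060 without WT line 36 and -0.023 without KO line 33. Daxx, the H3.3 chaperone of silent chromatin, was at 25.8, 21.9 and 23.5 CPM in the WT lines and at 24.5, 22.7 and 24.95 CPM in the KO lines. Every KO line lay inside the WT range. The log2 fold change was 0.02 (SE 0.09, 95% interval -0.20 to 0.24, edgeR adjusted p = 0.941), and it was -0.029 without WT line 47. Both intervals overlap the 95% interval of Chaf1a, 0.12 to 0.75, the replication-coupled gene with the smallest estimate. The difference between single genes was not tested.

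To compare both routes within each line, the mean log2 CPM of Chaf1a, Chaf1b and Asf1b was set against that of Hira and Daxx. The replication-coupled mean was 3.56, 4.002 and 3.62 in WT lines 36, 47 and 78 and 4.44, 4.21 and 4.17 in KO lines 33, 41 and 72. The replication-independent mean was 3.80, 3.78 and 3.85 over the WT lines and 3.94, 3.85 and 3.75 over the KO lines. The first measure separated the genotypes and the second did not. Replication-coupled minus replication-independent was -0.23, 0.22 and -0.23 over the WT lines and 0.50, 0.36 and 0.42 over the KO lines on the log2 scale. It averaged -0.08 ± 0.26 in WT and 0.43 ± 0.07 in KO (SD, n = 3), a difference of 0.51 with no overlap. Chaf1a and Chaf1b alone, without Asf1b and with Rbbp4 still left out, gave a difference of 0.48. With Hira alone as the reference it was 0.49, with Daxx alone 0.53, and leaving out 1 line gave 0.43 to 0.66. This score was made from chosen genes and carries no p-value.

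WT line 47 lay between the other WT lines and the KO lines, and the same was true of proliferation genes. The mean log2 CPM of 14 such genes (Mki67, Top2a, Pcna, Ccnb1 and others) was 5.19, 5.74 and 5.24 in WT lines 36, 47 and 78 and 6.18, 5.97 and 5.75 in KO lines 33, 41 and 72. WT line 47 and KO line 72 were nearly equal in it. From lowest to highest, the replication-coupled mean and the proliferation mean put the 6 lines in one and the same order, WT 36, WT 78, WT 47, KO 72, KO 41 and KO 33. Chaf1b alone gave that order too, and Asf1b and Chaf1a gave it with KO lines 41 and 72 exchanged. The replication-independent mean ran differently, with KO line 72 lowest and KO line 33 highest. Both measures come from the same libraries, so the shared order describes these 6 lines.

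**Figure D2:**
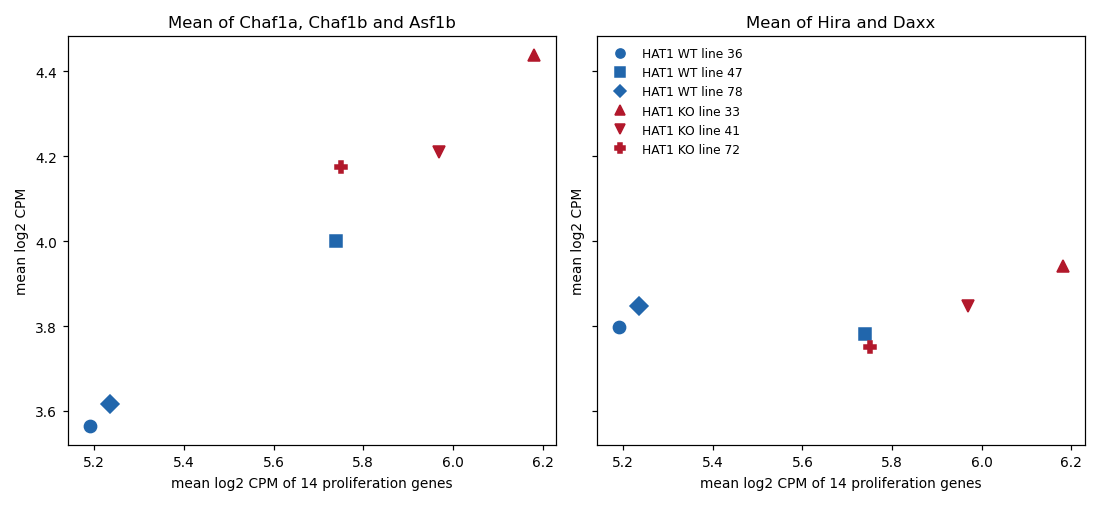
Mean log2 CPM of Chaf1a, Chaf1b and Asf1b (left) and of Hira and Daxx (right) against the mean log2 CPM of 14 proliferation genes, 1 marker per line, on axes that do not start at 0. On the left the lines climb from WT 36 (3.56) to KO 33 (4.44), while on the right they stay between 3.75 and 3.94.

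With the proliferation mean as a covariate in edgeR, the log2 fold change of Asf1b was 0.18 (adjusted p = 0.825), that of Chaf1a 0.14 (adjusted p = 0.834) and that of Chaf1b 0.08 (adjusted p = 0.896). The difference between replication-coupled and replication-independent genes was then 0.15 in place of 0.51. The proliferation mean did not overlap between the genotypes, so its part and that of genotype cannot be told apart. The Y-linked counts were high in WT lines 36 and 47 alone. With a term for them, which leaves WT line 78 to be set against the KO lines, the log2 fold change was 0.68 for Asf1b (edgeR adjusted p = 0.400), 0.57 for Chaf1a (adjusted p = 0.360) and 0.76 for Chaf1b (adjusted p = 0.364). A model with sequencing lane gave 0.48, 0.33 and 0.49 in the same order, with an edgeR adjusted p of 0.772 or more. Lane 8 held WT line 36 alone, so that line does not enter this comparison. It sets WT line 47 against KO lines 33 and 72, and WT line 78 against KO line 41. The part of the blood markers, which differed between the genotypes in the other direction, was not tested.

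The remaining members were grouped by role. Asf1a, the other ASF1 form, was at 11.3, 12.9 and 11.6 CPM in WT lines 36, 47 and 78 and at 14.4, 15.1 and 13.6 CPM in KO lines 33, 41 and 72. The genotypes did not overlap, with a log2 fold change of 0.26 (SE 0.09, edgeR adjusted p = 0.292). Ipo4, the importin that takes the H3-H4-ASF1 cargo into the nucleus, was at 167.6, 160.1 and 149.6 CPM in the WT lines and at 176.4, 180.4 and 191.3 CPM in the KO lines. It did not overlap either, with a log2 fold change of 0.20 (SE 0.07, edgeR adjusted p = 0.289). Its order of lines was unlike that of the replication-coupled genes, since KO line 72 was highest. With the proliferation covariate its log2 fold change was 0.25, the one separated member whose estimate was not lower than with genotype alone, though its unadjusted p was then above 0.05 as well (adjusted p = 0.717).

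Nasp, the reserve chaperone, was at 19.0, 26.3 and 21.2 CPM in the WT lines and at 26.4, 26.6 and 19.6 CPM in the KO lines. WT line 47 reached the level of KO lines 33 and 41, and KO line 72 lay among the WT lines. Its log2 fold change was 0.13 (95% interval -0.29 to 0.54, edgeR adjusted p = 0.783). Rbbp4, the small CAF-1 subunit and a part of several chromatin complexes, was at 178.8, 192.9 and 174.1 CPM in the WT lines and at 204.3, 208.1 and 178.9 CPM in the KO lines, a log2 fold change of 0.12 (95% interval -0.09 to 0.32, edgeR adjusted p = 0.578). Rbbp7, the partner of HAT1 itself, was at 159.5, 172.2 and 147.2 CPM in the WT lines and at 184.9, 186.1 and 145.9 CPM in the KO lines, a log2 fold change of 0.11 (95% interval -0.17 to 0.39, edgeR adjusted p = 0.715). In all 3 genes KO line 72 was the low KO line. Without it, Nasp was at a log2 fold change of 0.27 (edgeR adjusted p = 0.396), Rbbp4 at 0.19 (adjusted p = 0.239) and Rbbp7 at 0.23 (adjusted p = 0.232). Other lines moved the estimates too. That of Nasp ran from 0.03 without WT line 36 to 0.27 without WT line 47, and was 0.06 without KO line 33 or KO line 41. Rbbp4 was at 0.17 without WT line 47 and lowest, at 0.08, without KO line 41, and Rbbp7 was at 0.18 without WT line 47 and at 0.06 without WT line 78, KO line 33 or KO line 41. Rbbp7 lies on the X chromosome, and with the term for high Y-linked counts its log2 fold change was 0.23 (adjusted p = 0.620), while Nasp was at 0.19 and Rbbp4 at 0.18. Hat1 was about 0.504 of its WT level in the KO lines, while the ratio of its partner Rbbp7 was 1.08.

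Read against all genes, 10 of 10 members had a log2 fold change above 0, as did 51.5% of the 14773 genes tested. Adjusted edgeR calls numbered 0 of 10 members, beside 0.528% of all genes in either direction and 0% in the higher direction. At an unadjusted p under 0.05, 5 members (Asf1b, Chaf1b, Chaf1a, Ipo4 and Asf1a) were higher in KO, beside 5.88% of all genes, and these 5 were also the ones that did not overlap, beside 9.59% of all genes. A two-sided exact permutation test over the 6 lines gave p = 0.1 for each of the 5, the smallest it can give with 3 lines against 3. The median log2 fold change of the members was 0.16, and that of all genes 0.0085. Asf1b lay above 94.8% of all genes in this measure, Chaf1b above 94.3%, Chaf1a above 91.7%, Asf1a above 85.2% and Ipo4 above 79.8%, while Hira lay above 59.6% and Daxx above 51.8%.

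The count of 5 depended on the lines and the model. It was 1 without WT line 78, that of Asf1b (3.11% of all genes), 2 without WT line 36, those of Asf1b and Ipo4 (3.02%), and 7 without KO line 72 (9.06%). The count was 4 without WT line 47, KO line 33 or KO line 41, where the share of all genes in that direction is not given. With lane in the model it was 1 (1.39% of all genes), with the Y-linked term 3 (5.44%) and with the proliferation covariate 0 (2.46%). DESeq2 put Asf1b past the adjusted threshold (adjusted p = 0.0327), beside 1.53% of all genes in that direction, and left Chaf1b (adjusted p = 0.0528) and Chaf1a (adjusted p = 0.0682) short of it. Asf1b was the one member with an unadjusted p under 0.05 whichever line was left out. The plot of log2 fold changes sets the intervals beside the range of all genes, and the plot of alternatives gives the estimates without each line and under each model.

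**Figure D3:**
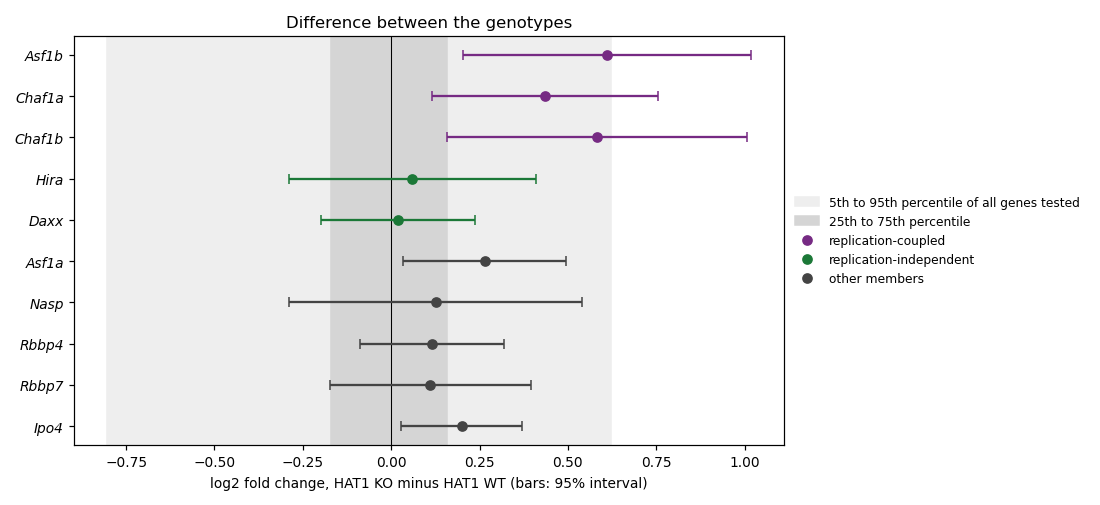
Log2 fold change, HAT1 KO minus HAT1 WT (horizontal axis), of each of the 10 genes with its 95% interval from edgeR; the grey bands span the 25th to 75th and the 5th to 95th percentile of all 14773 genes tested. Asf1b (0.61) and Chaf1b (0.58) lie near the upper edge of the wide band, and Hira (0.06) and Daxx (0.02) inside the narrow one.

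**Figure D4:**
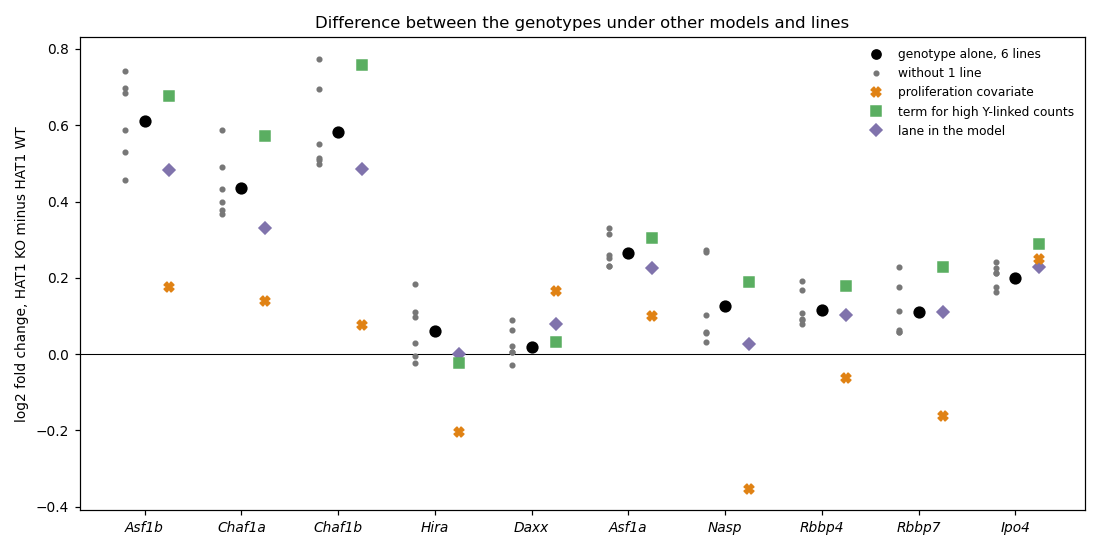
Log2 fold change, HAT1 KO minus HAT1 WT (vertical axis), of the 10 genes with genotype alone (black), without each line in turn (small grey points), with the proliferation covariate, with a term for high Y-linked counts and with lane. Asf1b stays between 0.46 and 0.74 when a line is left out and is at 0.18 with the proliferation covariate, whereas Ipo4 is at 0.25 with it.

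Levels of different genes were compared per kb of exon, in the WT lines. Rbbp7 was the highest at 54.9 ± 4.30 CPM per kb (SD, n = 3), followed by Ipo4 at 34.1 ± 1.93, Rbbp4 at 20.8 ± 1.12 and Daxx at 7.54 ± 0.63 CPM per kb. These 4 did not overlap each other over the lines. Asf1b followed at 4.10 ± 0.61 and Asf1a at 3.28 ± 0.23 CPM per kb, and they did not overlap each other. Asf1a overlapped Nasp (2.95 ± 0.49), Nasp overlapped Chaf1b (2.52 ± 0.52), and Chaf1b overlapped Chaf1a (2.37 ± 0.40 CPM per kb). Hira was lowest, at 1.33 ± 0.12 CPM per kb, so the 10 genes spanned 41.2-fold. With the length of the longest annotated transcript in place of all exons the span was 36.2-fold, and the fifth to seventh places became Nasp, Asf1a and Asf1b. On that length Ipo4 overlapped Rbbp4, Daxx overlapped Nasp, Asf1a overlapped Asf1b and Asf1b overlapped Chaf1b, while Nasp did not overlap Asf1a and Chaf1b did not overlap Chaf1a. The CAF-1 subunit genes stood at unequal levels per kb, with Rbbp4, which also serves other complexes, far above Chaf1a and Chaf1b.

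**Figure D5:**
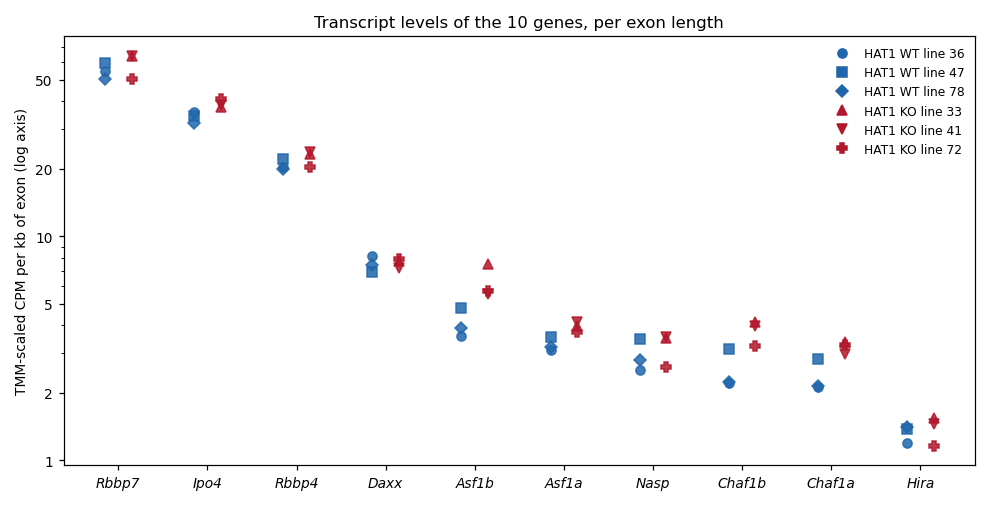
TMM-scaled CPM per kb of exon (vertical log axis) of the 10 genes, ordered by their WT mean, with 1 marker per line for HAT1 WT (blue) and HAT1 KO (red). Rbbp7 (54.9 in WT) is at the top and Hira (1.33) at the bottom.

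Related genes were then set against each other within each line. The ratio of Asf1b to Asf1a per kb was 1.16, 1.35 and 1.23 in WT lines 36, 47 and 78 and 1.90, 1.33 and 1.53 in KO lines 33, 41 and 72. KO line 41 lay inside the WT range, and the mean log2 ratio differed by 0.34, or by 0.21 without KO line 33. With the longest annotated transcript as the length, Asf1b was at 4.71, 6.24 and 5.12 CPM per kb in WT lines 36, 47 and 78. Asf1a was then at 5.14, 5.86 and 5.28 CPM per kb, so Asf1b was the higher in WT line 47 alone. The choice of length does not alter the difference between the genotypes. The ratio of Rbbp7 to Rbbp4 per kb was 2.68, 2.68 and 2.54 over the WT lines and 2.72, 2.69 and 2.45 over the KO lines, and the mean log2 ratio differed by -0.0094. The members of these pairs share 0 stretches of 50 bases in the annotated transcripts, so reads that long tell them apart.

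Neighbours on the genome touch several of these values. On GRCm38 in GENCODE M21, Asf1b spans chr8:83955507-83970197, Chaf1b chr16:93883901-93906115, Nasp chr4:116601052-116627941 and Daxx chr17:33909414-33915590, and their exons overlap no other gene. Chaf1a (chr17:56040439-56072289) shares 52.5% of its exon bases with Ubxn6 on the opposite strand, and Asf1a (chr10:53596757-53609225) shares 48.05% with Mcm9, also opposite. The strand setting of the counting was not given in the sources used here and the library kit does not mark strand, so reads in these stretches cannot be told apart. Ubxn6 itself had a log2 fold change of 0.02 and Mcm9 of -0.03. Hira (chr16:18877037-18970309) shares 44.7% of its exon bases with Gm28539 and Ipo4 (chr14:55625400-55635957) 55.32% with Gm49378, both on the same strand and neither in the table. Rbbp4 (chr4:129307100-129335370) shares 18.05% with Sync and Gm26722, and Rbbp7 (chrX:162760402-162779092) 5.98% with Txlng. Rbbp7 also shares 11.21% of its 50-base stretches with other transcripts, mostly those of the processed pseudogene Gm6382, so its counts carry that uncertainty.

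Other genes of the same pathway were counted in 3 lists. Of 14 tested and 15 listed genes for histone supply and the fork, 9 were higher and 5 lower, with a median log2 fold change of 0.14, and 1, Hat1, passed the adjusted threshold. Tlk1, a kinase of ASF1, was at 71.3, 67.1 and 73.4 CPM in the WT lines and at 58.1, 62.0 and 58.1 CPM in the KO lines. It was lower in every KO line, with a log2 fold change of -0.25 (SE 0.06, edgeR adjusted p = 0.176). Of the 14773 genes tested, 1829 were likewise lower in every KO line. Mcm2, the helicase subunit that also binds H3-H4, was at 56.3, 76.3 and 61.8 CPM in the WT lines and at 94.96, 83.9 and 76.8 CPM in the KO lines. The lowest KO line and WT line 47 nearly met, and the log2 fold change was 0.39 (SE 0.14, edgeR adjusted p = 0.274).

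Among 7 partners of the replication-independent route, 3 were higher and 4 lower, with a median log2 fold change of -0.036 and 0 at an unadjusted p under 0.05. Atrx, the remodeler that works with DAXX, was at 139.8, 145.1 and 173.0 CPM in the WT lines and at 120.1, 129.6 and 138.5 CPM in the KO lines. Atrx was lower in every KO line, as were 1829 of the 14773 genes tested. Its log2 fold change was -0.24 (edgeR adjusted p = 0.364). Ubn2, a subunit of the HIRA complex, had a log2 fold change of -0.15 (adjusted p = 0.475) and Dek, another H3.3 chaperone, 0.13 (adjusted p = 0.647). H3f3a and H3f3b, the genes of H3.3 itself, were at 0.02 and 0.05. Among 10 tested of 12 listed other chaperones, 7 were higher and 3 lower, with a median of 0.15. Nap1l1, a chaperone of H2A-H2B, had a log2 fold change of 0.22 (edgeR adjusted p = 0.303), Anp32e, which handles H2A.Z, 0.28 (adjusted p = 0.332) and Grwd1, a chaperone that also acts in ribosome assembly, 0.29 (adjusted p = 0.355). Over the 3 lists, 5 of 31 genes (16.1%), Hat1 among them, had an unadjusted p under 0.05 in either direction, beside 14.6% of all genes, so the share was near the background. Without KO line 72 the number was 14 (18.5% of all genes) and without WT line 47 it was 9 (11.1%). It was 2 without WT line 78 (10.1% of all genes), without KO line 33 (12.4%) and without KO line 41 (13.7%).

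To place the replication-coupled pattern among all genes, each of 13947 protein-coding genes was compared with the mean of Chaf1a, Chaf1b and Asf1b by the root mean square difference of centred log2 CPM over the 6 lines. The nearest were Lbr (0.0438), which encodes the lamin B receptor, Mcm7 (0.0444), a subunit of the replicative helicase, Timm8a1 (0.0472), a mitochondrial import protein, Spc25 (0.0496) of the outer kinetochore, and Cdc45 (0.0517), the helicase activator. The median gene was at 0.376. Asf1b itself was at 0.0753, Chaf1b at 0.0839 and Chaf1a at 0.0850, though these 3 make up the mean. Asf1a followed at 0.183, Nasp at 0.245, Rbbp4 at 0.250, Ipo4 at 0.253 and Rbbp7 at 0.259, with Hira at 0.287 and Daxx at 0.342. The root mean square difference of Daxx was thus near that of the median gene.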

How the data were processed

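RNA from 6 pMEF lines was sequenced after TruSeq RNA v2 library preparation. The authors deposited raw read counts per gene, whole numbers with no normalization, and 0 columns lacked a sample. The deposited table also held the authors' own comparison (log2 fold change, log2 CPM, F, p and q), which was not used. The submitters' processing notes name edgeR and mm10. Aligner, counter, annotation and strand setting are not given in the sources used here.

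Groups were taken from the genotype label. All 17512 genes matched GENCODE M21 on GRCm38 by Ensembl identifier, and 24 symbols turned into dates were restored. Counts were fitted with edgeR 4.0.16 in R 4.3.3 (filterByExpr, 14773 genes, TMM, quasi-likelihood test on genotype, two-sided), with Benjamini-Hochberg adjustment over all genes and a threshold of 0.05. The standard error is the log2 fold change divided by the root of F, with intervals at 95%. Log2 CPM used a prior count of 2. The common dispersion was 0.0747 and the smallest member count was 558, so spread between lines exceeds counting error. The script was tested on simulated data.

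The genes described were the members, Hat1, the 3 genes with the smallest p in each pathway list, and the 5 protein-coding genes nearest in pattern. Other genes are given for overlaps or as list members. The members and lists were chosen with earlier results of these data known. Alternatives were DESeq2 1.42.0, voom (limma 3.58.1) with sample weights, other scaling and filters, lane, Y-linked and proliferation terms, and leaving out each line. Promoter windows came from RefSeq on GRCm38.p6 and held all 10 members.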

Additional observations from a re-analysis of the deposited data

How the results depend on the processing

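The estimates of Asf1b, Chaf1a, Chaf1b, Asf1a and Ipo4 stayed above 0 in each of 15 alternatives. With the proliferation covariate Nasp was at -0.35, Rbbp4 at -0.062, Rbbp7 at -0.16 and Hira at -0.20. Hira was also at -0.02281 with the Y-linked term, and leaving out 1 line gave -0.023 (KO line 33) to 0.18 (KO line 72), with -0.0060 without WT line 36. Leaving out 1 line gave Daxx values from -0.029 (WT line 47) to 0.088 (WT line 36). The cause was not tested. Hat1 was lower in each of the 15 and lost its adjusted call in 9. The number of members past the adjusted threshold, 0 in edgeR, was 1 in DESeq2. The number at an unadjusted p under 0.05, 5 with genotype alone, was 1 with lane, 3 with the Y-linked term, 0 with the proliferation covariate and 1 to 7 when 1 line was left out. For the pathway lists, 5 with genotype alone, it was 9 in DESeq2, 9 in voom, 2 with lane and 1 with the proliferation covariate. It was 2 to 14 when 1 line was left out. The share of all genes in either direction is not given for the DESeq2, voom, lane and proliferation fits. Their counts therefore cannot be read against the background. The difference between replication-coupled and replication-independent genes, 0.51, was 0.15 with the proliferation covariate. Scaling by DESeq2 size factors or library size alone, and other filters on low counts, moved none of these calls of members. No paired analysis was possible because the genotypes share no line numbers. With 3 lines a group, intervals such as -0.29 to 0.41 for Hira are wide, and lane, Y-linked counts and proliferation are not balanced between genotypes.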
